A study of Mus musculus with 9 samples.

Results

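The windows described here are 1 kb stretches of the mouse autosomes at which reads were unusually deep in both tables of the study. They were chosen by their depth alone. Each window starts at a multiple of 1000 bases, holds 3 or more CpGs listed in both tables, and has a mean of at least 6 reads per listed CpG in the wild-type (WT) table and 8 in the Tet1-null table, with 7 regions of excess depth left out by the rule. Of 1564808 autosomal windows with 3 or more shared CpGs, 1129 met it, and 136 further windows as deep lay in the left-out regions. Windows at most 2 kb apart were joined into 588 loci, 471 of them a single window. The number of copies of these sequences in the genome was not measured, so they are called deep windows rather than collapsed copies.

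The study sequenced bisulfite-converted DNA of primordial germ cells, the embryonic precursors of eggs and sperm, from female C57BL/6 embryos at embryonic day 13.5. The WT group has 4 libraries from 1575 to 5251 cells and the Tet1 -/- group, called Tet1-null, has 5 libraries from 1400 to 4700 cells. Tn5 transposase fragmented the DNA, and a Sigma kit (2 WT and 2 Tet1-null libraries) or a Zymo kit (2 and 3) converted it. All libraries of a genotype are pooled in 1 table, so each difference is between 2 pools, and no library, kit, sequencing run or embryo can be left out or compared. A test on their reads tells how the pools differ, not how the genotypes do, also where WT cells and Tet1-null cells are written for short. Tet1-null libraries 1 and 2 state the same input of 3266 cells, and the labels do not say whether libraries came from separate embryos. The labels give the genotype only as Tet1 -/-, and neither the deletion nor a marker of the germ cells was analysed here.

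By this age primordial germ cells have erased most DNA methylation, and repeated sequences, above all young retroviral elements, are known to keep part of it. Tet1 encodes a dioxygenase that oxidises 5-methylcytosine to 5-hydroxymethylcytosine, and bisulfite sequencing reads both as methylated. In short-read data a sequence with more copies in the genome than in the reference gathers the reads of all its copies, so its level is a mixture over copies. Whether that holds for any window here was not tested.

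No gene annotation of the tables' build, mm9, was used. Genes were therefore named only where the spacing of CpGs in a RefSeq promoter sequence (GRCm38.p6, the 250 bases before and 50 after a gene start) recurred in the CpG positions of the tables. Of 32851 promoter entries, 17116 held 7 or more CpGs, and 25 entries of 21 genes had at least 90% of their CpGs at the same spacing, with no other CpG between them, at a single place on the autosomes that lay within 5 kb of a deep locus or inside a cluster of them. Entries of 4 genes overlapped a deep window: Sp140, which encodes a bromodomain protein of nuclear bodies, Tmem267, which encodes a transmembrane protein, and the little-described genes 3110070M22Rik and Gm40237. An entry of Gm46490 also matched inside a deep window, chr14:22184001-22185000, but at 20 places on the autosomes, so it is not counted among these. The 250 bases before the start are shown for 3 of them because they differ in CpG number and in whether they repeat internally. Whether the deep windows themselves repeat internally was not measured, and only the last bases of the Gm40237 entry lie in a deep window. CpGs are in capitals and each stretch runs 5′ to 3′ in the direction of its gene. In mm9 they were placed with their entries at chr1:87497028-87497327 (plus strand), chr13:120277030-120277329 (plus strand) and chr4:118219761-118220060 (plus strand).
Sp140: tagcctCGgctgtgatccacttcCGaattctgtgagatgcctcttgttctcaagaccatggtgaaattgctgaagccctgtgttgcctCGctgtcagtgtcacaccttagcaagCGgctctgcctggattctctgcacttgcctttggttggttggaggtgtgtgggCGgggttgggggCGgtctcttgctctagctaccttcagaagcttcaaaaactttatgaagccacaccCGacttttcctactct
Tmem267: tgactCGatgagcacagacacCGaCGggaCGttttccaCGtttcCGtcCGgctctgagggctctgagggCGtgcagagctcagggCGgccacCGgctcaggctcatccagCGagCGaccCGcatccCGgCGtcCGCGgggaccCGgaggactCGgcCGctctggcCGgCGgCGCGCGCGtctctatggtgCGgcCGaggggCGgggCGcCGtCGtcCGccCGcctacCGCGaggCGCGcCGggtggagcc
Gm40237: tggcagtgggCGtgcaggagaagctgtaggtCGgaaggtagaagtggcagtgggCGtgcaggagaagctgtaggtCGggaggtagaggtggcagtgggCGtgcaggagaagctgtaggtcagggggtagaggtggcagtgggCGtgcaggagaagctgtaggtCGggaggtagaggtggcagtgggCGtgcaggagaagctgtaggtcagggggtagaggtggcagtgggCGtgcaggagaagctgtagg
The Sp140 stretch holds 7 CpGs, the Tmem267 stretch 39 and the Gm40237 stretch 9. The Gm40237 stretch is a tandem repeat: shifted by 88 bases it matched itself at 97.5% of positions, a value that 2 of the 32851 promoter entries reached, itself included, while the median entry's best match over shifts of 10 to 100 bases was 34.6%. The Sp140 stretch reached 33.8% and the Tmem267 stretch 37.7%.

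Depth, which chose the windows, is given as a description. The autosomal mean was 2.21 reads per listed CpG in WT cells and 2.85 in Tet1-null cells, so the thresholds stand at 2.71 and 2.81 times those means. The median deep window had 8.43 and 14.4 reads per listed CpG. The 3 windows just inside the threshold had WT and Tet1-null depths of 6 and 12.4 (chr1:48749001-48750000), 7 and 8 (chr1:78328001-78329000) and 6 and 8.29 (chr1:84961001-84962000). The 3 just outside had 5.95 and 14.5 (chr10:57694001-57695000), 5.95 and 19.4 (chr10:105113001-105114000) and 5.93 and 9.38 (chr1:85099001-85100000). Deep windows had few CpG positions listed in either table, with a median of 6 against 10 in other tested windows, but 7 of them held 40 or more. The filters can add to this contrast. A shallow window needs more CpGs than a deep one to reach the 10 reads per pool required for testing, and a mean over few CpGs passes a depth threshold more easily. Over the deep windows the Tet1-null pool held 1.83 times as many reads as the WT pool, against 1.28 times over the other tested windows.

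Deep windows lay on all 19 autosomes, unevenly. Chromosomes 1, 4, 8 and 5 held 215, 203, 159 and 152 of them, and chromosome 19 held 5. When loci at most 500 kb apart were grouped, 17 clusters of 5 or more windows held 720 of the 1129 windows, and 275 windows had no other deep window within 500 kb.

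Methylation was low in most deep windows, with a long upper tail shared by both pools. Over all of them, 7144 of 82559 reads were methylated in WT cells, 8.65% (8.46 to 8.85%, Wilson 95% limits), and 11692 of 150752 in Tet1-null cells, 7.76% (7.62 to 7.89%). The Tet1-null pool was lower by 0.897 points (Newcombe 95% interval of Tet1-null minus WT, -1.13 to -0.664). The other tested autosomal windows stood at 3.42% and 4.15%, a difference of 0.732 points in the opposite direction (0.720 to 0.744). Reads were summed over CpGs, so a read is counted at each CpG it covers. Intervals cover counting error only and take these counts as independent. Reads copied by PCR also carry no molecular identifiers. The intervals can therefore be too narrow, as can the upper limits given below where no read was methylated.

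The median window did not show the lower Tet1-null level. The median deep window was at 3.70% in WT cells (quartiles 0 and 8.22%) and at 3.95% in Tet1-null cells (1.64 and 7.27%), and 526 windows were higher in Tet1-null cells, 528 lower and 75 equal. In the clusters the level was 7.27% and 7.24%, a difference of -0.0275 points (-0.315 to 0.257). Outside them it was 10.9% and 8.41%, a difference of -2.44 points (-2.84 to -2.04). Without the 12 windows that share CpG spacing with another deep window, the difference over the others was -0.408 points (-0.644 to -0.174). Across the 1129 windows the levels of the 2 pools had a Pearson correlation of 0.767 and a Spearman correlation of 0.487, as a description: the pools share the genome, the method and the CpGs, and neighbouring windows are not independent.

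**Figure D1:**
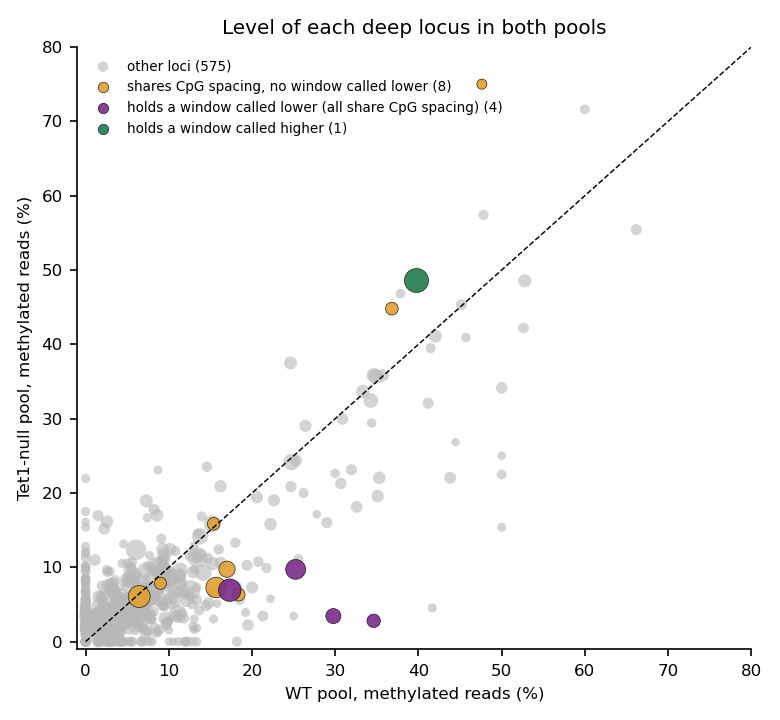
Methylated reads (%) of each of the 588 deep loci in WT cells (x axis) and Tet1-null cells (y axis); point area grows with WT reads and the dashed line marks equal levels. The 4 loci with windows called lower lie at 17.3 to 34.6% in WT cells and 2.80 to 9.72% in Tet1-null cells, while the locus with the window called higher lies at 39.8 and 48.7%.

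Of the 1129 deep windows, 6 passed Fisher's exact test on reads (two-sided, Benjamini-Hochberg adjustment over 902868 tested autosomal windows) with the adjusted p below 0.05 and the levels at least 10 points apart. The count lower in Tet1-null cells was 5 of 1129, or 0.443%, beside 0.0147% of all tested windows. The count higher was 1 of 1129, or 0.0886%, beside 0.0192%. At an unadjusted p under 0.05, 62 deep windows were lower, beside 1% of all tested windows, and 27 higher, beside 1.31%. When only CpGs with 10 or more reads in each pool were used, 461 deep windows could be tested. Of these, 7 were called lower and 7 higher, so the excess of lower over higher calls was not seen there. Of the 640 windows tested in all, 2.5% were called lower and 1.25% higher. The 461 deep windows are most of these 640, so those shares are not a separate background. Deep windows give the test more reads than other windows do, so these shares are not read as a rate of change. In the left-out regions, 7 windows were called lower and 0 higher.

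The 5 lowered windows form 4 loci, and each of these shares a stretch of CpG spacing with another deep locus. Among 636756 pairs of deep windows, 7 pairs shared a run of at least 8 net CpG matches (each CpG at the same spacing counted 1, each CpG listed in only 1 of the windows took 1 away), which joined 12 windows in 12 loci into 5 sets; 388 windows held enough CpGs to do so. The sequences of these windows were not read, so whether they are alike beyond the spacing of their CpGs was not tested. All 4 loci with a lowered window were in the sets called A and B here, of 3 windows each.

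Set A joins windows on chromosomes 2, 16 and 17. At chr2:73705001-73706000, 22 of 61 reads were methylated in WT cells (36.1%) and 2 of 90 in Tet1-null cells (2.22%), adjusted p = 0.000383 by Fisher's exact test. The next window, chr2:73706001-73707000, fell from 32 of 95 reads (33.7%) to 4 of 124 (3.23%), exact test adjusted p = 3.31e-05. At chr16:11144001-11145000 the level fell from 211 of 836 reads (25.2%) to 202 of 2078 (9.72%), exact test adjusted p = 3.29e-20. These 3 windows were high in WT cells and low in Tet1-null cells at most of their CpGs: 6 of 8, 6 of 6 and 41 of 55 shared CpGs were lower in Tet1-null cells, and 1, 0 and 3 were higher. At chr17:71313001-71314000, 23 of 125 reads (18.4%) and 10 of 158 (6.33%) were methylated, which did not pass the test (exact test adjusted p = 0.764).

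At the CpGs whose spacing they share, the windows of set A were all lower in Tet1-null cells. Of the 9 such CpGs of the chromosome 2 and chromosome 16 windows, 7 had reads in both pools on chromosome 2 and read 22 of 59 (37.3%) in WT cells and 2 of 87 (2.30%) in Tet1-null cells, and all 9 did on chromosome 16 and read 46 of 146 (31.5%) and 6 of 295 (2.03%). At the 9 CpGs that chromosome 16 shares with chromosome 17, the values were 12 of 49 (24.5%) and 22 of 140 (15.7%) on chromosome 16 and 15 of 76 (19.7%) and 7 of 89 (7.87%) on chromosome 17. The flanks of these 3 loci, the other windows within 5 kb, were at 0 to 2.48% in WT cells and 1.69 to 3.21% in Tet1-null cells, at depths of 1.90 to 2.24 and 2.63 to 3.01 reads per CpG. The level in the deep stretch was thus far above its surroundings in WT cells.

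Set B joins windows on chromosomes 6, 16 and 18. At chr18:68851001-68852000 the level fell from 78 of 262 reads (29.8%) to 19 of 552 (3.44%), adjusted p = 1.91e-20 by Fisher's exact test, with 15 of 16 CpGs lower. At chr16:57391001-57392000 it fell from 242 of 1397 reads (17.3%) to 176 of 2541 (6.93%), exact test adjusted p = 6.78e-18, with 38 of 53 CpGs lower and 8 higher. At chr6:145881001-145882000, 9 of 100 reads (9%) and 15 of 191 (7.85%) were methylated, with an interval of -8.98 to 5.15 points for the difference.

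In set B the shared CpGs did not move alike. Of the 14 CpGs whose spacing chromosomes 16 and 18 share, 11 had reads in both pools on chromosome 18, with 47 of 155 methylated (30.3%) in WT cells and 13 of 356 (3.65%) in Tet1-null cells, and 10 on chromosome 16, where reads were few, with 1 of 29 (3.45%) and 7 of 38 (18.4%). At the 11 CpGs shared with chromosome 6, chromosome 16 had 29 of 149 (19.5%) and 16 of 268 (5.97%), and chromosome 6, with reads in both pools at 10 of them, had 9 of 92 (9.78%) and 15 of 180 (8.33%). The flanks of the 3 loci were at 0.617 to 0.952% in WT cells and 5.32 to 8.90% in Tet1-null cells. In these flanks the order of the pools was thus the reverse of that in the lowered windows.

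**Figure D2:**
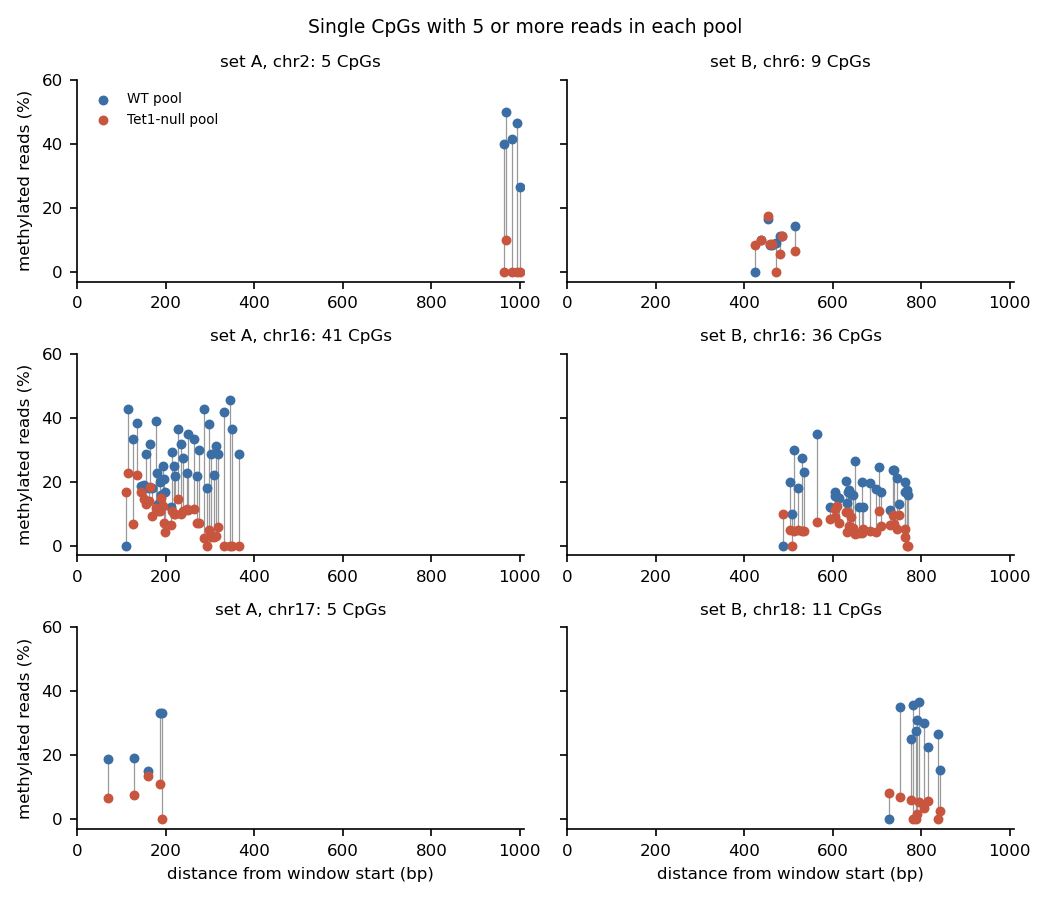
Methylated reads (%) of single CpGs with 5 or more reads in each pool, by distance from the window start (bp), in the windows of set A (left) and set B (right); a grey line joins the 2 pools at each CpG. In the chromosome 2, 16 and 18 windows nearly all WT points lie above the Tet1-null points, which is not so on chromosome 6.

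The other 3 sets hold 2 windows each. Both windows of set C lie in 1 cluster of chromosome 1; chr1:84980001-84981000 read 15.4% and 15.9%, and chr1:85237001-85238000 read 21.8% and 15%. Set D joins chr2:5300001-5301000 (17% and 9.75%, adjusted p = 0.558) and chr3:5860001-5861000 (152 of 969 reads, 15.7%, and 157 of 2152, 7.30%, adjusted p = 1.39e-07 by Fisher's exact test). Set E joins chr4:98198001-98199000, at 36.8% and 44.8% (interval of the difference -2.62 to 18.1 points), and chr14:22184001-22185000, at 20 of 42 reads (47.6%) and 144 of 192 (75%), exact test adjusted p = 0.435. In the chromosome 4 window 0 of the 11 CpGs that share spacing had reads in both pools, so its level comes from other CpGs than those that join the set. Over whole windows, those of sets A and D were all above 15% in WT cells and under 10% in Tet1-null cells. At the 11 CpGs that share spacing, however, the set D windows went in opposite directions: chr2:5300001-5301000 read 56 of 307 (18.2%) and 59 of 522 (11.3%), and chr3:5860001-5861000, with reads in both pools at 10 of them, read 8 of 205 (3.90%) and 43 of 471 (9.13%). In set C the shared CpGs read 15.8 and 16.4% in the first window and 20.8 and 16.7% in the second.

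The tests differ on how firmly the lowered windows are called. The exact test counts a read at each CpG it covers. The F test takes neighbouring CpGs as independent, though the same reads can cover them. The p-values of both can therefore be too small where CpGs lie close together. When CpGs were treated as the units, in a quasi-binomial F test over CpGs with the same adjustment, chr16:11144001-11145000, chr16:57391001-57392000 and chr18:68851001-68852000 kept adjusted p-values of 9.79e-13, 1.33e-11 and 1.32e-06, and the 2 chromosome 2 windows had 0.527 and 0.421. When only CpGs at least 100 bp apart were used, 824 deep windows could be tested and 0 passed in either direction. Of the windows called above, only the 2 on chromosome 16 were among those tested, so the other calls were not retested there. The 2 chromosome 16 windows then kept 57 and 110 WT reads and read 21.1% and 10.4%, and 14.5% and 6.22%, so their direction was as before.

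At a difference of 5 points or more, 8 deep windows were called lower (beside 0.0151% of all tested windows) and 2 higher (0.0193%). The 3 lowered windows this adds are chr3:5860001-5861000 above, chr4:118220001-118221000, and chr9:123371001-123372000, which read 68 of 613 (11.1%) and 35 of 939 (3.73%), exact test adjusted p = 0.000502. Without the deepest 1% of the CpGs in deep windows, the chromosome 9 window kept 13 of 94 reads (13.8%) and 8 of 168 (4.76%) and did not pass. The chromosome 4 window begins in the last bases of the placed Gm40237 entry. Its listed CpGs largely keep the regular spacing of the tandem repeat shown above, though its sequence was not read. This window read 83 of 566 (14.7%) and 107 of 1520 (7.04%), exact test adjusted p = 0.00327. Within the 300 bases of the Gm40237 entry itself, however, the levels were 3 of 52 (5.77%) and 5 of 131 (3.82%), an interval of the difference of -12.1 to 4.17 points. The 1 CpG inside both the entry and the window had 0 of 2 methylated WT reads, so the methylated WT reads of the window all lay downstream of the entry. The raised window this adds, chr6:50559001-50560000, read 34 of 509 (6.68%) in WT cells and 133 of 812 (16.4%) in Tet1-null cells, exact test adjusted p = 0.00138; 37 of its 48 CpGs were higher, and 34 were at 0 in WT cells against 5 in Tet1-null cells. By the quasi-binomial test the chromosome 3 window had an adjusted p of 0.00666 and the other 3 windows added had 0.285 to 0.612.

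The 1 window called higher by 10 points lies at the end of the distal chromosome 13 locus, the most methylated of the clusters. The locus spans 8 windows, chr13:120277001-120285000, and read 731 of 1839 (39.8%) in WT cells and 1513 of 3109 (48.7%) in Tet1-null cells, a difference of 8.92 points (6.06 to 11.7). Its windows ranged from 18.4 to 60.3% in WT cells and from 25.8 to 68.1% in Tet1-null cells. The called window, chr13:120284001-120285000, rose from 53 of 174 reads (30.5%) to 122 of 208 (58.7%), adjusted p = 0.000664 by Fisher's exact test and 0.870 by the quasi-binomial test, with 12 of 15 CpGs higher. Among the other 7 windows the adjusted p was 0.682 or more. The flanks of the locus were at 4.40 and 9.78%, at depths of 2.10 and 2.08.

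The first window of that locus holds the starts of Tmem267 and 3110070M22Rik, which face away from each other with overlapping promoter entries. All 50 CpGs of the Tmem267 entry shown above were listed, and 40 were covered in both pools. Their mean depth was 4.7 reads per CpG in WT cells and 13.5 in Tet1-null cells. At these CpGs 141 of 187 reads (75.4%) were methylated in WT cells and 363 of 541 (67.1%) in Tet1-null cells. The difference was -8.30 points (-15.2 to -0.637). The 3110070M22Rik entry, with 48 of 48 CpGs, read 162 of 207 (78.3%) and 394 of 570 (69.1%). Another Tmem267 entry, placed upstream at chr13:120276643-120276942 with 22 of 22 CpGs, lay just outside the deep window at 2.12 reads per CpG in each pool and read 3 of 36 (8.33%) and 1 of 36 (2.78%). Depth and level thus rose together between 2 starts of the same gene. Within the promoter the WT level was the higher of the 2, but it rests on few reads per CpG, so the order of the pools there is uncertain. Over the whole locus the Tet1-null level was the higher.

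**Figure D3:**
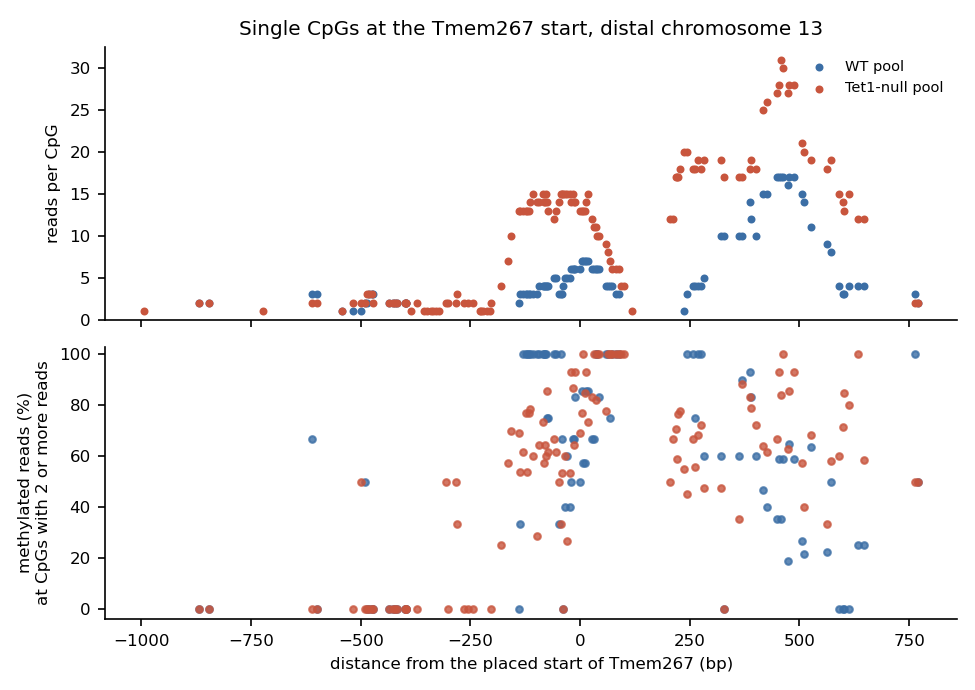
Reads (top) and methylated reads in % (bottom) of single CpGs within 1000 bases of the placed start of Tmem267, by pool, against distance in bp. Upstream CpGs have few reads and are mostly at 0%, and levels around the start are mostly above 50% in both pools.

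High methylation in both pools was rare. At 50% or more in both there were 3 deep windows (0.266%), beside 0.172% of all tested windows: chr1:66065001-66066000 (24 of 40 reads and 58 of 81), chr12:64453001-64454000 (45 of 68 and 51 of 92) and the window with the Tmem267 start (324 of 537 and 863 of 1268). A further 10 were at 50% or more in 1 pool. The 8 loci with the highest mean level of the 2 pools include, besides these, chr14:22184001-22185000, chr12:24999001-25000000 (47.8 and 57.4%), chr12:24712001-24713000 (52.8 and 48.5%), chr4:30157001-30158000 (52.6 and 42.2%) and chr6:16310001-16311000 (45.2 and 45.3%). In none of the last 4 did the interval of the difference exclude 0. Their flanks were methylated too, at 15.8 to 46.8% in WT cells and 16.5 to 60% in Tet1-null cells, where those of the distal chromosome 13 locus and of sets A and B were at 9.78% or less.

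The clusters were mostly low, with small differences between the pools. The largest, 177 windows on chromosome 4 (chr4:144999001-147168000), read 4.07 and 4.20%. The 138 windows of the chromosome 8 cluster (chr8:19682001-20033000) read 4.88 and 4.32%, the 69 of chr5:14875001-15206000 5.78 and 5.07%, and the 44 of chr5:93911001-94135000 4.40 and 3.90%. The chromosome 17 cluster (chr17:6220001-6923000, 38 windows) was the lowest in WT cells, at 1.91%, and read 3.36% in Tet1-null cells, with an interval of the difference of 0.730 to 2.14 points. The 3 clusters on chromosome 1 were higher: 9.13 and 9.60% over 104 windows (chr1:84959001-85344000), 9.87 and 8.52% over 33 windows (chr1:87350001-87524000) and 8.63 and 6.64% over 33 windows (chr1:90108001-90206000). The 6 windows of chr7:12595001-12755000 read 15.5% and 6.82% from only 148 and 220 reads. Of the 17 intervals, 2 lay above 0 (distal chromosome 13 and chromosome 17) and 5 below 0, and none was adjusted for the number of clusters.

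**Figure D4:**
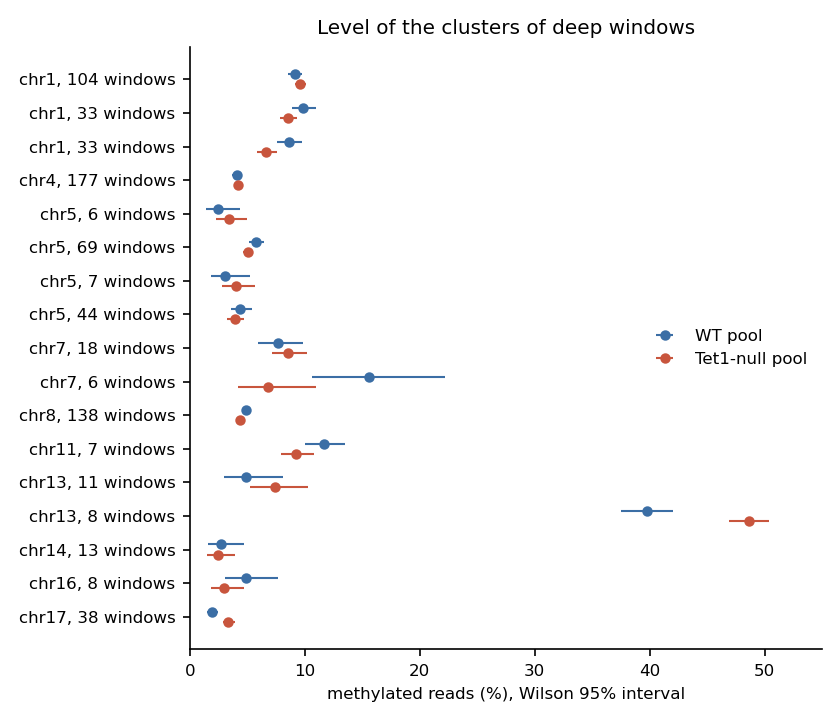
Methylated reads (%) with Wilson 95% intervals of the 17 clusters of deep windows in WT cells (blue) and Tet1-null cells (red), in genome order. All but the distal chromosome 13 cluster of 8 windows lie under 16% in both pools.

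Placed promoters put gene names on several clusters. The Sp140 entry lies in the second chromosome 1 cluster and overlaps a deep window; it read 3 of 69 (4.35%) and 11 of 169 (6.51%) at 9.86 and 24.1 reads per CpG. Hjurp, which encodes a chaperone of the centromeric histone, was placed in the third with 22 of 22 CpGs, 1106 bases from a deep window, at 0 of 42 reads, which allows a level of up to 7.14% (3 reads of the total), and 1 of 124 (0.806%). Zfp982 and Gm13212 were placed in the chromosome 4 cluster, each with 0 methylated reads in both pools, which with 10 and 8 WT reads allows levels up to 30% and 37.5%. Tmem181a was placed in the chromosome 17 cluster with 24 of 24 CpGs, 1094 bases from a deep window, at 1 of 71 reads (1.41%) and 4 of 187 (2.14%). Apart from the chromosome 13 pair, no promoter placed at a single position with 20 or more reads in each pool was above 10% in either pool.

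The ratio of reads between the pools varied among clusters, from 1.17 on proximal chromosome 11 (7 windows) and 1.26 in the cluster with Hjurp to 1.82 on chromosome 8 and 1.97 on proximal chromosome 5 (69 windows). The ratio over all autosomal CpGs shared by the tables was 1.31. Depth chose these windows in both pools, so the ratios are a description, and whether kit, run or genotype accounts for them cannot be told apart.

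The deepest loci were short stretches at which the levels of the pools differed little. At chr6:103599001-103600000 the depth was 97.6 and 153 reads per CpG, 44.1 and 53.9 times the autosomal means, and 118 of 875 reads (13.5%) and 156 of 1377 (11.3%) were methylated. The next 5 by WT depth were chr15:74916001-74918000 (7.22 and 5.75%), chr6:9839001-9841000 (1.67 and 2.02%), chr13:71066001-71067000 (3.44 and 3.50%), chr16:74550001-74551000 (2.65 and 2.01%) and chr2:41934001-41935000 (3.28 and 4.21%). Then came chr1:175954001-175955000 (3.23 and 2.83%) and chr13:77578001-77579000 (15.3 and 10.5%). The interval of the difference spanned 0 at each of these 8 loci, although each held 122 or more WT reads. Their flanks within 5 kb had 1.55 to 2.62 reads per CpG in WT cells, near the autosomal mean.

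Windows beside the loci are those that did not meet the depth rule, so a fall in depth there was set in advance. Its size is given as a description. Methylation, which did not choose the windows, changed less. Around the 471 loci of a single window, the median depth was 7.67 and 13 reads per CpG in the deep window and 2.33 to 2.50 (WT) and 3.44 to 3.50 (Tet1-null) in the adjoining windows. The pooled level of the deep windows was 10.6% in WT cells and 8.34% in Tet1-null cells, and in the windows 1 to 5 kb away it was 6.80 to 9.53% and 6.71 to 9.37%. Of 584 loci with 10 or more flank reads in WT cells, 255 were above their flanks and 307 below; in Tet1-null cells it was 259 and 320 of 585. The median locus was at 4.17% beside a flank of 4.55% in WT cells and at 4.02% beside 4.74% in Tet1-null cells. With flanks of 2 kb, 253 loci were above and 236 below in WT cells, and 259 above and 269 below in Tet1-null cells. With CpGs of 3 or more reads in each pool it was 239 and 239 in WT cells and 270 above and 234 below in Tet1-null cells. The order of locus and flank thus depends on the CpGs used and, in WT cells, on the flank width. The surroundings of deep loci, at 7.70 and 7.90%, were themselves above the 3.42 and 4.15% of other tested windows.

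**Figure D5:**
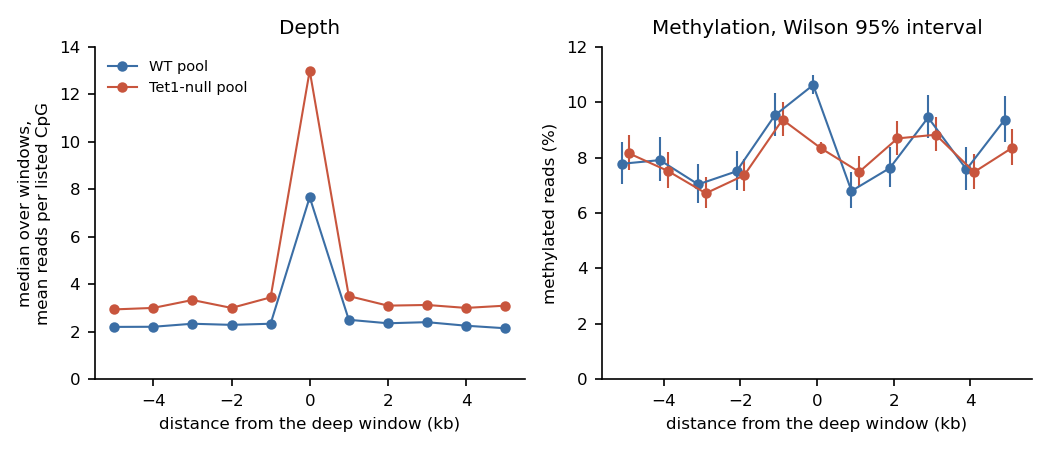
Median depth (reads per listed CpG, left) and methylated reads in % with Wilson 95% intervals (right) in and around the 471 loci of a single deep window, by distance in kb and pool; windows at other distances that are deep themselves are left out. The peak in depth follows from the choice of windows. The level in the deep window exceeds that of every neighbouring distance in WT cells only.

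CpG-dense deep windows were more methylated than CpG-poor ones. The 889 windows with 3 to 9 CpG positions read 5.55 and 5.02%, the 203 with 10 to 19 read 10.2 and 9.61%, the 30 with 20 to 39 read 15.5 and 13.6%, and the 7 with 40 or more read 21.4 and 16.6%. Other tested windows of the same 4 classes read 2.81, 3.33, 5.37 and 3.77% in WT cells. The densest class thus stood furthest from the other windows of its density, among which CpG islands are known to be unmethylated; 5 of its 7 windows are described above, on chromosomes 3, 6, 13 and 16. With WT depth, the pooled WT level moved little, 8.46% at 6 to under 10 reads per CpG, 8.59% at 10 to under 20 and 9.35% at 20 or more. The pooled Tet1-null level was 8.75, 7.14 and 6.42%. The median Tet1-null window showed no such fall, at 3.98, 3.90 and 4.21%, and the median WT window was at 3.70% in each class.

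Depth allowed single CpGs to be read. Of 5537 CpGs in deep windows with 5 or more reads in each pool, 57.2% were at 0% in WT cells and 47.2% in Tet1-null cells, and 14.7% (13.8 to 15.7%) and 11% (10.2 to 11.9%) were between 20 and 80%. Of 201309 other autosomal CpGs of that depth, 87.1 and 83.9% were at 0 and 8.44 and 8.79% between 20 and 80%. Intermediate levels in both pools were found at 327 of the 5537 CpGs (5.91%), against 1.64% of the others, and levels over 80% in both at 11. The CpGs in deep windows had medians of 11 and 18 reads and the others 5 and 6, and a CpG with more reads is less often at exactly 0. With both pools thinned to the same reads at each CpG, 57.6% (WT) and 57.8% (Tet1-null) of the CpGs in deep windows were at 0, so the gap between the pools in that share was not seen at equal depth, and 14.9 and 12.8% lay between 20 and 80%.

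There were 2 deep windows that shared CpG spacing, at the run score of 8 or more used above, with 1 of 2 very deep sequences compared. At chr6:3151001-3152000, 28 of 35 CpGs matched the more distal of the 2 left-out chromosome 17 regions, with a run score of 22 where the next window reached 7, and 70 of 460 reads (15.2%) and 168 of 1060 (15.8%) were methylated. At chr2:22445001-22446000, 13 of 14 CpGs matched the mitochondrial genome, with a run score of 11 where the next window reached 7, and 5 of 232 reads (2.16%) and 8 of 579 (1.38%) were methylated. The mitochondrial genome itself, which is taken as unmethylated and gives the background of unconverted cytosines, read 1.66 and 1.29%. The chromosome 2 window was thus near that background in both pools.

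Near the ends of chromosomes 1 locus set the level. The 13 deep windows within 2 Mb of the last listed CpG of an autosome read 27.2 and 32.1%, but 8 of them are the distal chromosome 13 locus, and the other 5 read 107 of 1243 (8.61%) and 76 of 1846 (4.12%). Among those 5, chr9:123371001-123372000 alone read 68 of 613 in WT cells and 35 of 939 in Tet1-null cells, so 1 window weighs heavily there too. The 37 deep windows within 2 Mb of the first listed CpG read 9.25% (8.32 to 10.3%) and 8.16% (7.46 to 8.92%), intervals that hold the 8.65 and 7.76% of all deep windows. All tested windows in the same end stretches read 3.94 and 4.78% at the last and 6.38 and 6.99% at the first CpGs.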

How the data were processed

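Per the labels' protocols, DNA was fragmented and tagged by Tn5, converted with bisulfite, amplified and sequenced by Illumina. The authors deposited 1 table per genotype, libraries pooled, with a methylation level as a fraction and a count of reads per CpG. The submitters' processing notes name mm9 as build, and bedtools. A deposited read filter drops reads with over 1.2% of bases being a C not followed by G, which can lower all levels. No source used here gives the aligner or the duplicate handling. Reads totalled 29113793 (WT) and 44743415 (Tet1-null) over autosomal CpGs.

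Fraction times reads was whole at every autosomal site (tolerance 0.0005 per read). Methylated and total reads were summed over CpGs listed in both tables with Python 3.11.15, pandas 2.3.3 and scipy 1.17.1. Windows with 10 or more reads in each pool were tested; the procedure was tested on simulated data. Named loci were the 8 deepest, 8 with most windows, 8 most methylated, and those with the largest rise and fall among loci holding a called window, with ties by position. Of the loci with most windows, values are given through their clusters. Members, lists and rules were chosen with earlier results of these data known; clusters and CpG-spacing sets were added afterwards. Gene lists were not used. Alternatives varied sites, depths, grid, weights, tests and flanks.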

Additional observations from a re-analysis of the deposited data

Results flagged for a closer look

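Chromosome X was outside the comparisons because the windows were chosen on autosomes. By the same depth rule it held 152 deep windows among 72472 with 3 or more shared CpGs, and these read 24.2% in the WT pool (3443 of 14244 reads) and 25% in the Tet1-null pool (5841 of 23383), a difference of 0.808 points (Newcombe 95% interval -0.0904 to 1.70). All shared CpGs of chromosome X read 5.56 and 5.80%, and the deep autosomal windows 8.65 and 7.76%. The signal was noticed in data that no comparison used, and what these X windows hold was not tested.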

How the results depend on the processing

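No paired analysis was possible because each table pools the libraries of its genotype, and for the same reason no library could be left out. The level difference over the deep windows (Tet1-null minus WT, -0.897 points) stayed negative under all alternatives run. It was -1.40 with sites of 10 or more reads in each pool, -2.03 with depth thresholds of 10 and 14, -0.534 as a mean of site levels, -0.450 as a mean of window levels and -0.527 with the chrM level of each pool subtracted. Among alternatives chosen after seeing the data, it was -0.408 without the windows sharing CpG spacing, -0.0275 in clusters (-0.315 to 0.257) and -2.44 outside them. A split by WT depth, not among these alternatives, gave 0.290 points (-0.0646 to 0.641) in the 725 windows at 6 to under 10 reads per CpG. It gave -1.45 at 10 to under 20 and -2.93 at 20 or more.

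The count of deep windows called lower (5) was 8 and 7 with sites of 5 and 10 or more reads, 8 at a difference of 5 points, 3 at 20 points, 3 by the quasi-binomial F test, 0 with sites at least 100 bp apart and 1 without the windows sharing CpG spacing. That 1 window, chr2:73706001-73707000, adjoins a window of set A and belongs to the same locus. The count called higher (1) was 3 and 7 with sites of 5 and 10 or more reads, 0 at depth thresholds of 10 and 14, 2 at thresholds of 5 and 7, 2 with the grid shifted by 500 bp, 2 at 5 points, 0 after thinning both pools to the shallower, 0 with sites 100 bp apart and 0 by the F test. With sites 100 bp apart fewer windows (824) and fewer reads were tested, and 3 of 301520 windows passed in all. Of the deep windows called by 10 points, only those on chromosome 16 were tested in that setting.

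Windows at 50% or more in both pools (3) numbered 7 with sites of 10 or more reads, 0 at thresholds of 10 and 14, 1 with the grid shifted, 26 at a level of 30% and 0 at 70%. The share of CpGs between 20 and 80% in the Tet1-null pool (11%) was 12.8% when thinned. Where no reason is given, the cause was not tested. The other values stayed within 1.5 times the count or within the counting interval. Depth limits the small loci: with few reads per window only large differences could pass, and without replicates the spread between embryos is unknown.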
